A study of Mus musculus with 6 samples.

Results

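Heat shock factor 1 (*Hsf1*) and 9 chaperone genes were examined in primary mouse hepatocytes with and without the succinate receptor gene *Sucnr1*. The genes were taken by name from the deposited table of raw counts, where they are 10 of 25184 genes. The 6 libraries came from hepatocytes of chow-fed mice that were cultured overnight on collagen. Controls were *Sucnr1* fl/fl mice without Cre (replicates 1, 2 and 3), whose *Sucnr1* exon 2 is flanked by loxP sites. Hep-*Sucnr1* KO mice (replicates 3, 4 and 5) carry the same floxed alleles and Alb-Cre+/-, a Cre recombinase driven by the hepatocyte albumin promoter. Cre is thus present in Hep-*Sucnr1* KO cells alone, so the presence of Cre and the loss of *Sucnr1* cannot be told apart. RNA was extracted on 2 days, with 1 library of each genotype on day 1 (replicate 1 of *Sucnr1* fl/fl and replicate 3 of Hep-*Sucnr1* KO) and 2 of each on day 2. The labels used here give no age and no sex for these animals.

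Chaperones bind unfolded proteins and help them fold, and many of their genes are switched on together when proteins unfold. HSF1 is the transcription factor that does so: in unstressed cells chaperones keep it inactive, and under heat or other protein-damaging stress it forms trimers and binds heat shock elements, which are alternating GAA and TTC units in the DNA. *Hspa1a* and *Hspa1b* encode the stress-inducible Hsp70, *Hspb1* the small heat shock protein Hsp25, *Dnajb1* an Hsp40 co-chaperone, *Hsph1* an Hsp110 nucleotide exchange factor and *Hsp90aa1* the inducible cytosolic Hsp90. *Hspa8* encodes Hsc70, the Hsp70 of unstressed cells, and *Hspd1* and *Hspe1* encode Hsp60 and Hsp10, which together form the folding chamber of mitochondria. Isolation of hepatocytes by enzymes and plating are themselves known to stress cells, so levels here are those of cultured cells.

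On GRCm38, the build of the counts, the inducible Hsp70 genes are neighbours without introns: *Hspa1a* (ENSMUSG00000091971) at chr17:34969190-34972156 and *Hspa1b* (ENSMUSG00000090877) at chr17:34956436-34959238, both on the minus strand and 9951 bases apart. *Hspd1* (ENSMUSG00000025980, chr1:55077835-55088243, minus strand) and *Hspe1* (ENSMUSG00000073676, chr1:55088132-55091307, plus strand) stand head to head and overlap by 112 bases. The other inducible genes are *Hsph1* (ENSMUSG00000029657, chr5:149614287-149636376, minus strand), *Hspb1* (ENSMUSG00000004951, chr5:135887919-135889563, plus strand), *Dnajb1* (ENSMUSG00000005483, chr8:83608193-83612653, plus strand) and *Hsp90aa1* (ENSMUSG00000021270, chr12:110690605-110702728, minus strand). *Hspa8* (ENSMUSG00000015656) lies at chr9:40800984-40810087 on the plus strand, and *Hsf1* (ENSMUSG00000022556) at chr15:76477422-76501913 on the plus strand.

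Promoter windows of RefSeq (GRCm38.p6, 250 bases before to 50 after a start site) were held for 7 of the 10 genes and were searched for heat shock elements. *Hspa8*, *Hsp90aa1* and *Hsf1* had no window. The 150 bases before the start site are shown for the genes whose libraries separated by genotype (*Hspa1a*, *Hspa1b* and *Hspe1*) and for *Hspb1*, which differed most between days. Capitals mark the alternating units, and each sequence runs 5′ to 3′ on the gene's own strand.
Hspa1a, chr17:34972157-34972306, minus strand: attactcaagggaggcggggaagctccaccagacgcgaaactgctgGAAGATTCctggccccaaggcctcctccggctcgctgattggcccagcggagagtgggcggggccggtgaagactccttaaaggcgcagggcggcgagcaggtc
Hspa1b, chr17:34959239-34959388, minus strand: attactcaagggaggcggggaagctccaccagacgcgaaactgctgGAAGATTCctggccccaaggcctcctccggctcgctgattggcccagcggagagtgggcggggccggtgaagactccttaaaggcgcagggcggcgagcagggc
Hspb1, chr5:135887769-135887918, plus strand: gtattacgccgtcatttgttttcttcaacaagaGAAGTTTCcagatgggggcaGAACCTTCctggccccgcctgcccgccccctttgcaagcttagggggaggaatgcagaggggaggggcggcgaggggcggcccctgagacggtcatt
Hspe1, chr1:55087998-55088147, plus strand: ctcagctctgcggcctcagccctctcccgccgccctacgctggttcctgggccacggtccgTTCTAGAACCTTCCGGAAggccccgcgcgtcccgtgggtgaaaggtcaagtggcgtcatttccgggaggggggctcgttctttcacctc

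The stretches of *Hspa1a* and *Hspa1b* had the same base at 149 of 150 positions, and their full windows at 296 of 300. Both held a pair of units (GAANNTTC) that began 104 bases before the start site. *Hspb1* held 2 such pairs, beginning 117 and 97 bases before the start. *Hspe1* held an unbroken run of alternating units that began 89 bases before its start. *Hspd1* shares that run with *Hspe1*: 285 bases of the 300 base windows of both genes are the same DNA read in opposite directions, and these 2 start sites lie 216 bases apart. Read from this start of *Hspd1*, the run began 144 bases upstream.

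A run of 3 adjoining units (GAANNTTCNNGAA or TTCNNGAANNTTC, which together cover both strands) stood in windows of 3 of the 7 genes, namely *Hspd1*, *Hspe1* and *Hsph1*. The share among all genes with a window was 0.662% (179 of 27025). A pair of units (GAANNTTC or TTCNNGAA, each its own reverse complement, and contained in every run of 3) stood in windows of 6 of the 7 genes, all but *Dnajb1*, against 17.0% of all genes. In *Hsph1* the run of 3 lay after the start site, at 16 or 37 bases depending on the start used. Of 16 other genes listed as HSF1 targets that had a window, 1 (*Chordc1*) held a run of 3 and 7 held a pair. These matches describe letters in a short window and do not show binding in these cells.

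The libraries held 30504248 to 38770694 counts, and the 10 genes were counted between 347 and 55094 times in a library. Counting error was small beside the spread between samples for the genes with high counts. It weighed most for *Hsf1*, with 347 to 464 counts. Levels are given as CPM, in which each count is scaled to a common library total with TMM factors. All 10 genes passed the filter on low counts, as did 15105 genes in all. The targeted gene, *Sucnr1*, stood at 6.71, 3.55 and 3.40 CPM in the *Sucnr1* fl/fl libraries and at 2.66, 0.827 and 0.152 CPM in those of Hep-*Sucnr1* KO. Each Hep-*Sucnr1* KO library was below each control, but Hep-*Sucnr1* KO replicate 3, of day 1, kept 84 counts of *Sucnr1*. The day 1 control, *Sucnr1* fl/fl replicate 1, held 258 counts, and *Sucnr1* fl/fl replicate 3, of day 2, held 103. The counts cover the whole gene while exon 2 alone is floxed, so they bear on the deletion only in part. The log2 fold change of *Sucnr1* was −2.23 (SE 0.535) with an adjusted p of 0.998 in edgeR and 0.0328 in DESeq2. Hepatocyte markers summed to 60206 to 94048 CPM. The other liver cell types added at most 130.3 CPM (Kupffer cells), 91.2 (sinusoidal endothelial cells), 33.1 (stellate cells) and 650 (cholangiocytes), with none of their markers at 0.

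Per length, the constitutive Hsp70 led. On the scale of CPM per kb of exons, *Hspa8* had the highest level with a mean of 337 over the 6 libraries (range 311 to 365), followed by *Hspd1* with 124 (116 to 130.1). *Hsp90aa1* with 96.8 (92.7 to 100.5) and *Hspb1* with 80.9 (64.3 to 106) came next and did not differ beyond their spread. *Hspe1* with 54.2 (48.0 to 60.7) overlapped with *Hspa1b* at 39.0 (30.2 to 54.1). *Hspa1a* stood at 21.8 (15.9 to 29.7), apart from both neighbours in the order. *Hsph1* with 12.2 (11.3 to 14.0) and *Dnajb1* with 11.6 (10.6 to 12.7) overlapped. *Hsf1* was lowest at 1.80 (1.61 to 2.07). Per kb of the longest transcript the order of the means was the same, but their spacing changed. *Hspe1* then stood at 82.9, near *Hspb1* at 89.7 and far from *Hspa1b* at 39.0. *Hsph1* stood at 18.6, nearer to *Hspa1a* at 21.8, and *Dnajb1* at 12.4. Which neighbours overlap, as given above, thus depends on the use of exonic length. By level per kb of exons *Hspa8* stood at the 99.1st percentile of all genes tested and *Hsf1* at the 46.4th. The place of *Hsf1* depends on the length used, since per kb of its longest transcript it stood at 4.09. The inducible genes *Hspa1a* and *Hspa1b*, at the 89.4th and 93.6th percentile, were thus among the more abundant messages of these cells.

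**Figure D1:**
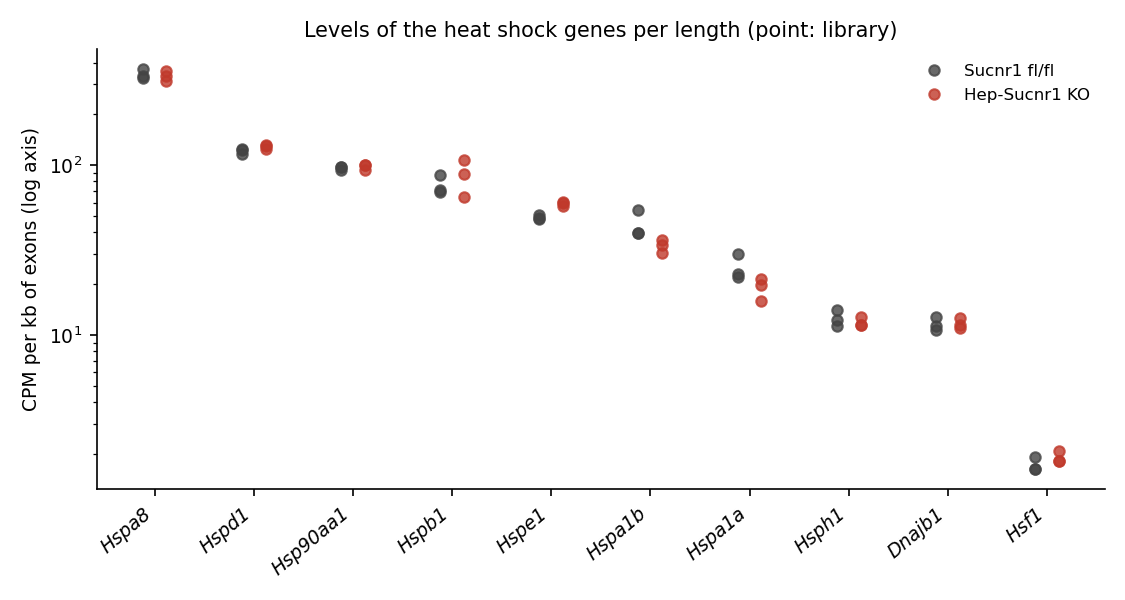
Levels of the 10 genes on the scale of CPM per kb of exons (log axis), with a point for each of 3 *Sucnr1* fl/fl libraries (grey) and 3 Hep-*Sucnr1* KO libraries (red), in order of the mean. *Hspa8* is highest at a mean of 337 and *Hsf1* lowest at 1.80, and the genotypes lie close together on this scale.

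Several of these genes have near copies, and the sources used here do not state how read pairs matching several genes were counted. Of the 50 base stretches of the longest *Hspa1a* transcript, 60.3% occurred in another gene, nearly all of them in *Hspa1b*. The share was 62.3% for *Hspa1b*, 58.5% for *Hsp90aa1*, 51.6% for *Hspb1*, 51.4% for *Hspa8* and 44.8% for *Hspd1*, in the latter 4 mostly shared with pseudogenes. It was 8.20% for *Hspe1*, 0.407% for *Dnajb1* and 0 for *Hsph1* and *Hsf1*. The *Hspa8* copy Gm15459 was itself given 9657 to 12115 counts per library and the *Hspb1* copy Hsp25-ps1 531 to 918. Levels of these 6 genes, and the order above, are uncertain to that extent.

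Most of the 10 genes varied little between libraries. The SD of log2 CPM over the 6 libraries was 0.0481 for *Hsp90aa1* and 0.0592 for *Hspd1*, which puts them at the 0.47th and 1.19th percentile of all genes tested. It was 0.0861 for *Hspa8*, 0.105 for *Dnajb1*, 0.117 for *Hsph1*, 0.138 for *Hsf1* and 0.154 for *Hspe1*. *Hspb1* (0.275), *Hspa1b* (0.287) and *Hspa1a* (0.294) varied most, and these 3 alone were above the median of 0.245 over all genes. Genes with high counts in general spread less on this scale, and the counts of these genes were high.

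The comparison of genotypes asks whether hepatocytes without *Sucnr1* hold their chaperone messages at another level. None of the 10 genes was called for genotype at an adjusted p of 0.05 by edgeR's quasi-likelihood test, where the share called among all genes was 0% (0 of 15105), nor by DESeq2, which called 0.0636% of the genes for which it gave an adjusted p (7 of 11005). The adjusted p was 0.998 for each of the 10 genes in edgeR. *Hspa1b* and *Hspe1* had an unadjusted p under 0.05, 2 of 10 against 3.73% of all genes. The median log2 fold change of the 10 genes was 0.03, beside 0.003 over all genes, and in Hep-*Sucnr1* KO 6 genes stood higher and 4 lower. In 7 of the 10 genes the CPM of the genotypes overlapped. Over all genes, 10.6% (1598 of 15105) had groups without overlap in either direction.

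**Figure D2:**
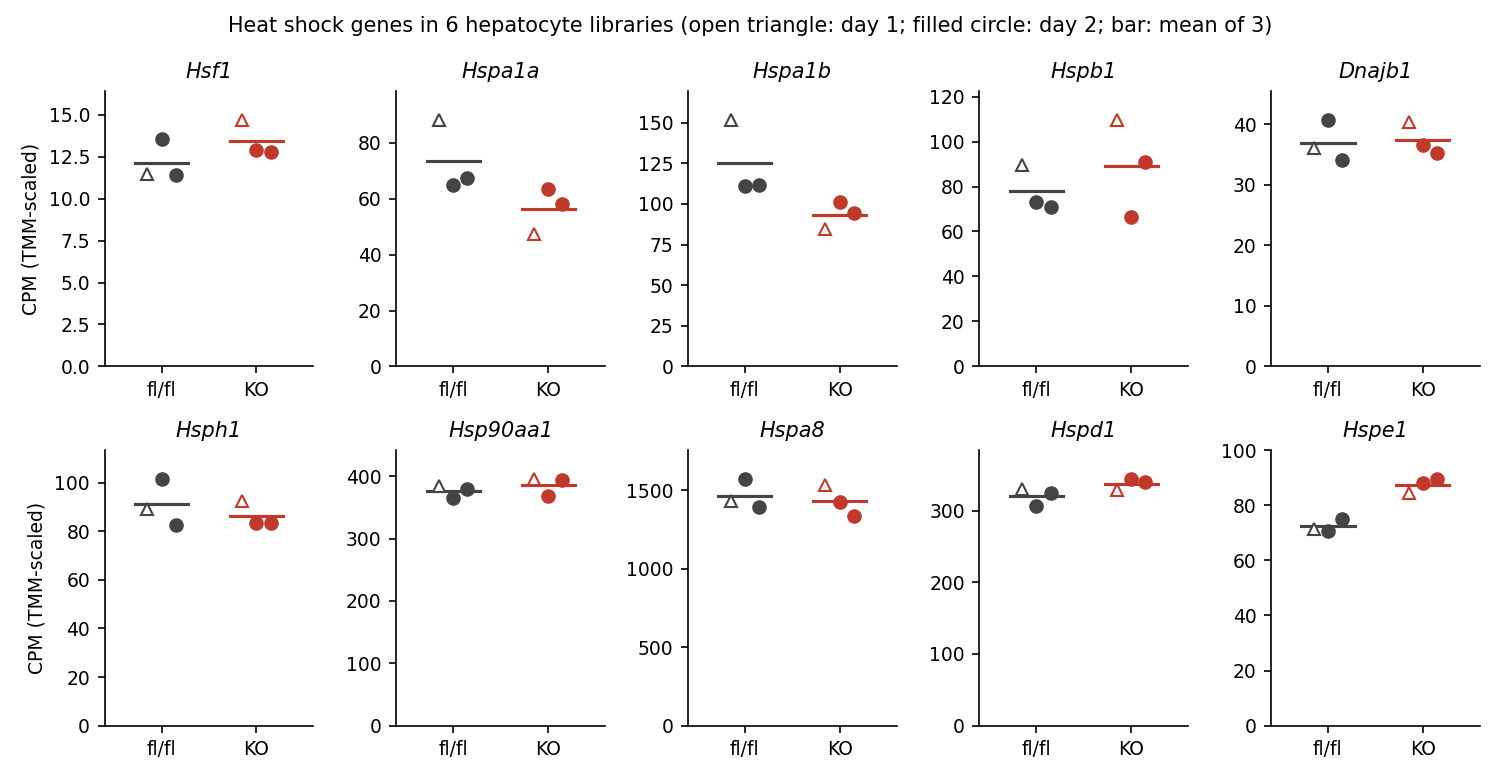
CPM (scaled by TMM factors, axes from 0) of each gene in the 3 *Sucnr1* fl/fl libraries (grey) and the 3 Hep-*Sucnr1* KO libraries (red), with open triangles for extraction day 1, filled circles for day 2 and a bar for the mean of 3. *Hspa1a* and *Hspa1b* are lower and *Hspe1* is higher in each Hep-*Sucnr1* KO library than in each control, and the widest gap for the Hsp70 genes lies between the day 1 libraries.

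The inducible Hsp70 genes were lower in every Hep-*Sucnr1* KO library. *Hspa1a* stood at 88.1, 64.8 and 67.4 CPM in *Sucnr1* fl/fl replicates 1, 2 and 3 and at 47.2, 63.3 and 58.0 CPM in Hep-*Sucnr1* KO replicates 3, 4 and 5. The groups did not overlap, but the highest Hep-*Sucnr1* KO and the lowest control library were close. Mean levels were 73.4 ± 12.8 CPM without and 56.1 ± 8.20 CPM with the deletion (SD, n = 3 each). In the fit *Hspa1a* had a log2 fold change of −0.38 (SE 0.17, 95% interval −0.79 to 0.03, unadjusted p = 0.0638 in edgeR).

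*Hspa1b* followed the same order of groups, with 151.6, 111.3 and 111.9 CPM in the *Sucnr1* fl/fl libraries and 84.7, 101.3 and 94.2 CPM in those of Hep-*Sucnr1* KO. Mean levels were 124.9 ± 23.1 and 93.4 ± 8.34 CPM (SD, n = 3 each). In the same fit its log2 fold change was −0.41 (SE 0.16, 95% interval −0.78 to −0.04, unadjusted p = 0.0355 in edgeR). The exact permutation test of the mean CPM gave p = 0.1 for both genes, the smallest value that 3 against 3 allows. Groups without overlap and lower in Hep-*Sucnr1* KO were found for 2 of the 10 genes, against 4.04% of all genes. The 2 genes share most of their sequence, so they do not count as 2 observations: the ratio of *Hspa1a* to *Hspa1b* counts stayed between 0.557 and 0.625 in all libraries. With their counts summed, the log2 fold change was −0.40 (SE 0.17, unadjusted p = 0.0493, adjusted p = 0.998 in edgeR).

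Most of this difference came from the day 1 pair. Day 1 holds a single library per genotype, so there is no replicate check there, and *Hspa1a* was 88.1 CPM in the control and 47.2 CPM in the knockout, a log2 difference of −0.90. On day 2 the means were 66.1 and 60.6 CPM, a log2 difference of −0.12. For *Hspa1b* the log2 differences were −0.84 on day 1 and −0.19 on day 2. Each library of that pair held the most *Sucnr1* of its genotype, 6.71 CPM in the control and 2.66 CPM in the knockout. Any bearing of this on the Hsp70 genes was not tested. With either library of day 1 left out, the genotype term rests on the day 2 libraries alone, so this is no separate check. Those fits gave a log2 fold change of −0.12 or −0.13 for *Hspa1a* and −0.19 or −0.20 for *Hspa1b*. The 2 libraries of day 1 were the extremes of the summed sinusoidal endothelial markers, with 91.2 CPM in *Sucnr1* fl/fl replicate 1 and 33.2 CPM in Hep-*Sucnr1* KO replicate 3. The other 4 lay between 50.3 and 63.1 CPM. No other cell type summed had both extremes there. Kupffer cell markers were highest in *Sucnr1* fl/fl replicate 3 (130.3 CPM) and lowest in Hep-*Sucnr1* KO replicate 3 (8.23). Stellate cell markers were highest in *Sucnr1* fl/fl replicate 1 (33.1) and lowest in Hep-*Sucnr1* KO replicate 4 (7.65). Cholangiocyte markers were highest in Hep-*Sucnr1* KO replicate 3 (650). The part of other cell types in the *Hspa1a* and *Hspa1b* values was not tested. In these bulk libraries, fewer cells of a type and less RNA per cell cannot be told apart.

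The other inducible genes did not separate the genotypes. *Hspb1* was 89.6, 73.1 and 71.1 CPM in the *Sucnr1* fl/fl libraries and 109.6, 66.3 and 90.9 CPM in those of Hep-*Sucnr1* KO, so the Hep-*Sucnr1* KO libraries held both the highest and the lowest value. The fitted log2 fold change was 0.18 (SE 0.14, 95% interval −0.16 to 0.52). The *Hspb1* value depended on single Hep-*Sucnr1* KO libraries: leaving out replicate 5 gave 0.06 and leaving out replicate 4 gave 0.32. Leaving out replicate 3, which leaves the comparison to the day 2 libraries, gave 0.12. *Hsph1* was 89.4, 101.4 and 82.4 against 92.4, 83.4 and 83.2 CPM, with a log2 fold change of −0.08 (SE 0.12, 95% interval −0.37 to 0.21). *Dnajb1*, the Hsp40 that hands substrates to Hsp70, was 36.0, 40.7 and 34.0 against 40.3, 36.6 and 35.2 CPM. Its log2 fold change was 0.02 (SE 0.12, 95% interval −0.26 to 0.29) and was below 0 with DESeq2's size factors and with library sizes alone, so no direction is given.

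*Hsp90aa1* was the steadiest of the 10, with 384, 364 and 380 CPM in the *Sucnr1* fl/fl libraries and 395, 368 and 393 CPM in those of Hep-*Sucnr1* KO. The fitted log2 fold change was 0.04 (SE 0.12, 95% interval −0.24 to 0.31). The intervals of *Hspb1*, *Hsph1*, *Dnajb1* and *Hsp90aa1* all included 0. Their lower bounds lay between −0.37 and −0.16 and their upper bounds between 0.21 and 0.52, so differences within those bounds remain possible with 3 libraries of each genotype.

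The constitutive Hsp70, *Hspa8*, was 1433, 1571 and 1397 CPM in the *Sucnr1* fl/fl libraries and 1533, 1425 and 1338 CPM in those of Hep-*Sucnr1* KO. The groups overlapped, and the log2 fold change was −0.04 (SE 0.14, 95% interval −0.38 to 0.30). *Hsf1* itself was 11.5, 13.5 and 11.4 CPM against 14.7, 12.9 and 12.8 CPM, also overlapping, with a log2 fold change of 0.14 (SE 0.13, 95% interval −0.18 to 0.47). The value for *Hsf1* was 0.25 without *Sucnr1* fl/fl replicate 2. It was 0.03 without Hep-*Sucnr1* KO replicate 3 and 0.04 without *Sucnr1* fl/fl replicate 1, fits in which the day 2 libraries alone compare the genotypes. The log2 difference was 0.35 on day 1 and 0.04 on day 2. HSF1 is controlled mainly after translation, so its message is no measure of its activity.

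**Figure D3:**
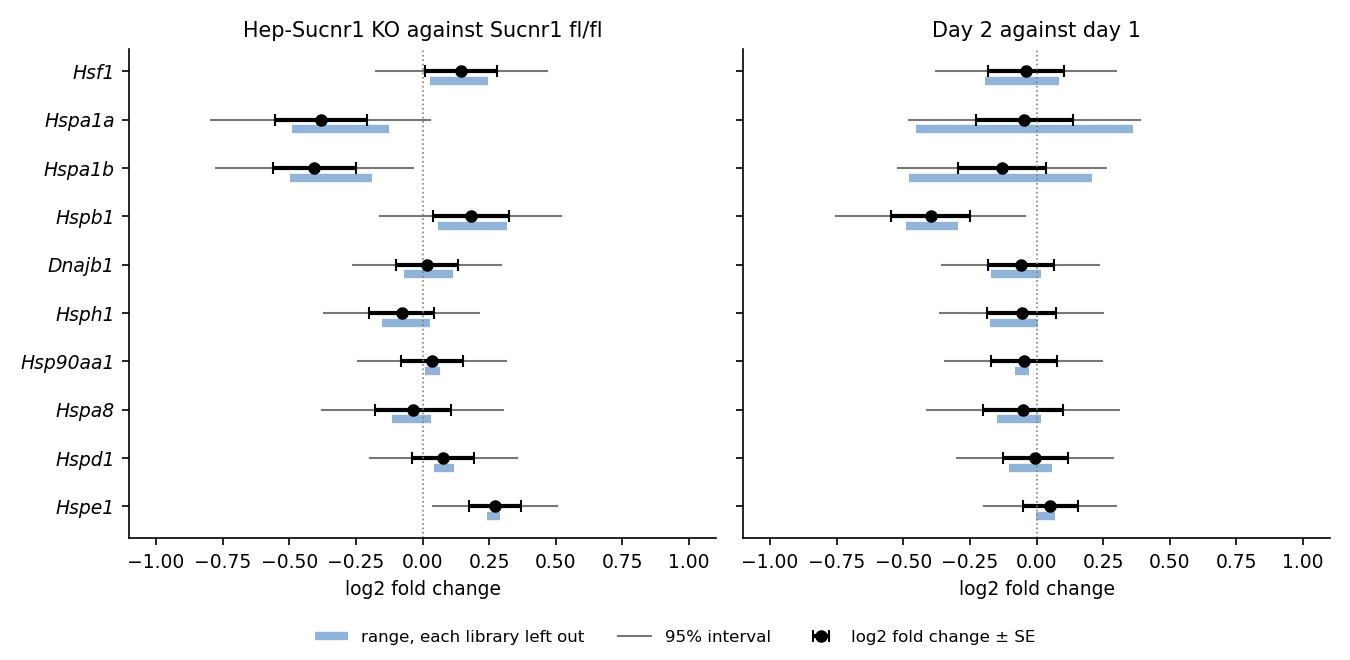
Log2 fold changes of the 10 genes for genotype (left) and for extraction day (right) from edgeR's fit of both terms (points, with SE as capped bars and 95% intervals as thin lines), and the range of the value when each library was left out in turn (blue). For genotype only *Hspa1b* and *Hspe1* have an interval that leaves out 0, and for extraction day only *Hspb1*, and none of the 10 genes passed the adjusted threshold.

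Of the genes of the mitochondrial folding chamber, *Hspe1* separated the genotypes and *Hspd1* did not, and whether their effects differ was not tested. *Hspd1* was 330, 306 and 324 CPM in the *Sucnr1* fl/fl libraries and 329, 344 and 341 CPM in those of Hep-*Sucnr1* KO, which overlapped through the day 1 libraries. Its log2 fold change was 0.08 (SE 0.12, 95% interval −0.20 to 0.35). *Hspe1* was 71.3, 70.8 and 75.1 CPM in the *Sucnr1* fl/fl libraries and 84.6, 88.1 and 89.4 CPM in those of Hep-*Sucnr1* KO. These groups stood well apart, with means of 72.4 ± 2.36 and 87.4 ± 2.50 CPM (SD, n = 3 each), and the exact permutation test gave p = 0.1, the smallest possible.

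In the fit, *Hspe1* had a log2 fold change of 0.27 (SE 0.098, 95% interval 0.04 to 0.50, unadjusted p = 0.0286, adjusted p = 0.998 in edgeR). The log2 difference was 0.25 on day 1 and 0.28 on day 2, and with each library left out in turn the fitted value stayed between 0.24 and 0.29. Groups without overlap and higher in Hep-*Sucnr1* KO were found for 1 of the 10 genes, against 6.54% of all genes. The ratio of *Hspd1* to *Hspe1* counts, which does not depend on scaling between libraries, was 4.63, 4.33 and 4.31 in *Sucnr1* fl/fl and 3.89, 3.90 and 3.81 in Hep-*Sucnr1* KO.

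Transcript length moved with these values. Among genes above 10 CPM, those with a longest transcript under 1000 bases had a median log2 fold change for genotype of 0.17, and 36.5% of these 405 genes were higher in Hep-*Sucnr1* KO without overlap. The median was 0.09 between 1000 and 2000 bases, 0.01 between 2000 and 4000 and −0.09 from 4000 on. The longest *Hspe1* transcript has 964 bases, and *Hspe1* stood 0.11 above the median of its length class on the log2 scale. *Hspb1*, with 930 bases, stood 0.02 above it. *Hsph1*, the longest with 4764 bases, stood 0.01 above the median of its own class, a change of sign from −0.08. *Hspa1a* and *Hspa1b*, with 2967 and 2803 bases, stayed at −0.39 and −0.42 relative to the median of theirs. *Hspd1*, with 2423 bases, falls in the class with a median of 0.01 and *Hspe1* in that with 0.17. The ratio of their counts thus compares genes of different length classes, and the part of length in it was not tested. How length came to move with genotype was not tested.

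**Figure D4:**
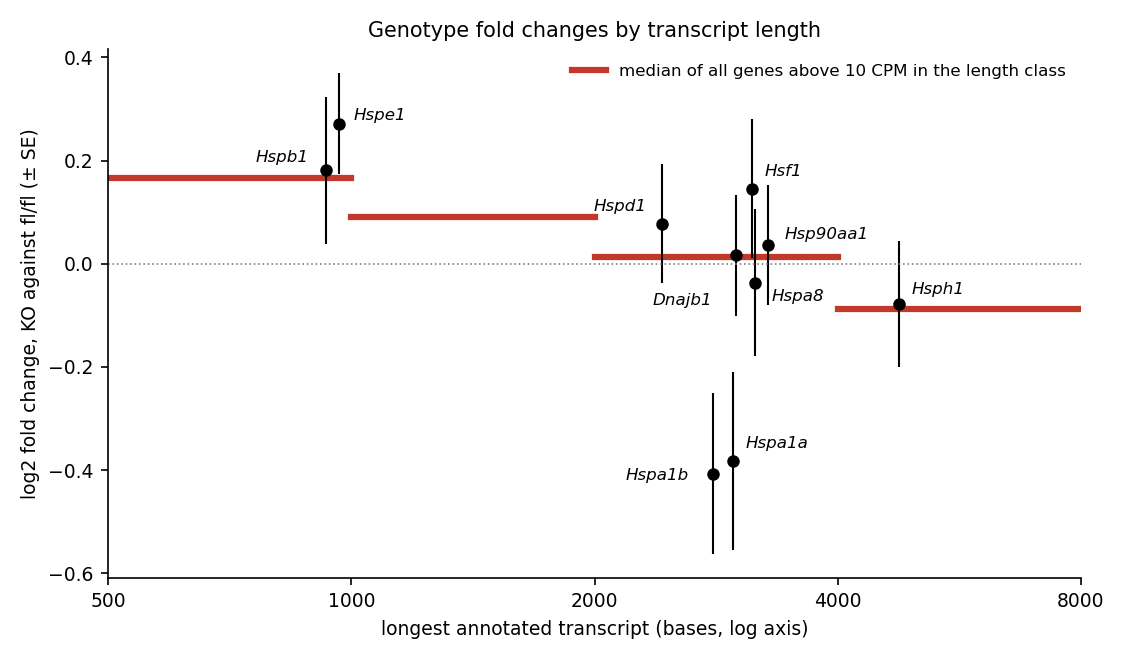
Log2 fold change for genotype (± SE) of the 10 genes against the length of the longest annotated transcript (bases, log axis), with the median of all genes above 10 CPM in each of 4 length classes in red. *Hspb1*, *Hspe1* and *Hsph1* lie near the medians of their classes, 0.02, 0.11 and 0.01 above them, and *Hspa1a* and *Hspa1b* lie at −0.39 and −0.42 relative to theirs.

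The extraction day was examined as the other known difference between libraries. None of the 10 genes was called by edgeR, where the share called among all genes was 0%, nor by DESeq2, which called 1.61% (225 of 13933). The log2 fold change of day 2 against day 1 was below 0 for 9 of the 10 genes, with a median of −0.05 beside 0.02 over all genes. *Hspb1*, a small heat shock protein that holds unfolded proteins until Hsp70 takes them over, was 89.6 and 109.6 CPM on day 1 and 66.3 to 90.9 CPM on day 2. Its log2 fold change was −0.40 (SE 0.15, 95% interval −0.75 to −0.04, unadjusted p = 0.0330, adjusted p = 0.591 in edgeR). It was the 1 gene of 10 with an unadjusted p under 0.05, against 7.49% of all genes. The other 9 log2 fold changes lay between −0.13 (*Hspa1b*) and 0.05 (*Hspe1*).

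Genotype and day were also tested together, and the interaction was called for none of the 10 genes, beside 0% of all genes in edgeR and 0.0265% (4 of 15105) in DESeq2. *Hspa1a* and *Hspa1b* had an unadjusted interaction p under 0.05, 2 of 10 against 3.69% of all genes. They share most of their sequence, and day 1 has no replicates.

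The mean profile of the inducible genes over the libraries was nearly flat. This profile, the mean deviation of log2 CPM from the 6-library mean, ran from 0.18 in *Sucnr1* fl/fl replicate 1 to −0.09 in Hep-*Sucnr1* KO replicate 4. The root mean square of the profile itself was 0.0882 on the log2 scale, so a gene without any variation would lie that close to it. *Hsp90aa1* differed from it by 0.0960, *Hsph1* by 0.105, *Dnajb1* by 0.123, *Hspa1b* by 0.199, *Hspa1a* by 0.218 and *Hspb1* by 0.239, beside a median of 0.241 over all genes. All 6 were farther from the profile than a flat line, so likeness to it does not show a pattern shared by these genes. In Hep-*Sucnr1* KO replicate 3, *Hspa1a* deviated by −0.43 and *Hspb1* by 0.42 from their means. The other genes nearest to the profile over the 6 libraries were *Mtmr3* (0.0127), *Paxip1* (0.0242), *Rybp* (0.0305), *Zfp652* (0.0307) and *Scaf8* (0.0317). With *Hspa1a* and *Hspa1b* left out of the profile, 0 of these 5 were among its nearest 5.

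A further 9 lists of chaperone and stress genes held 127 genes, of which 123 were in the table and 121 were tested. None of the 121 was called for genotype or for extraction day by edgeR, beside 0% of all genes in each. An unadjusted p under 0.05 for genotype was given by edgeR to 4 of the 121, where 3.73% of all genes had one, so the count over all lists is near the background. All 4 were among the 20 other HSF1 target genes. They were *Dnaja4*, *Ahsa1* and *Fkbp4*, higher in Hep-*Sucnr1* KO, and *Dnajb4*, lower at −0.44 (SE 0.14). For extraction day it was 1 of the 121 (*Hspa2*, log2 fold change −0.61), against 7.49% of all genes. Groups did not overlap for 13 genes that were higher and 2 that were lower in Hep-*Sucnr1* KO. The shares of all genes are the 6.54% and 4.04% given above. Among genes above 10 CPM the share that was higher without overlap varied with transcript length, from 36.5% below 1000 bases to 1.45% from 4000 bases on.

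The other HSF1 target genes were divided, with 11 of 20 higher and 9 lower in Hep-*Sucnr1* KO and a median log2 fold change of 0.02. Their highest value was 0.46 (SE 0.14) for *Dnaja4*, an Hsp40, at 4.89, 5.26 and 5.67 CPM in the *Sucnr1* fl/fl libraries and 6.62, 7.53 and 7.56 CPM in those of Hep-*Sucnr1* KO. Their lowest was −0.64 (SE 0.38) for *Serpinh1*, the collagen chaperone Hsp47, at 2.60, 1.23 and 0.989 against 1.01, 0.650 and 1.21 CPM. *Serpinh1* is made by stellate cells, whose summed markers were also highest in *Sucnr1* fl/fl replicate 1. The part of that in its value was not tested.

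Of these 20 targets, 5 were higher in every Hep-*Sucnr1* KO library, against 6.54% of all genes (chosen for naming after their values were seen). They were *Dnaja4*, the constitutive *Hsp90ab1*, its activators *Ahsa1* and *Ahsa2*, and its co-chaperone *Fkbp4*. *Hsp90ab1* was 702, 736 and 691 CPM in the *Sucnr1* fl/fl libraries and 801, 791 and 767 CPM in those of Hep-*Sucnr1* KO, a log2 fold change of 0.15 (SE 0.13). *Ahsa1* was 46.3, 50.7 and 46.2 against 56.7, 66.8 and 56.6 CPM, with 0.33 (SE 0.11, unadjusted p = 0.0219 in edgeR). *Fkbp4* was 81.2, 84.8 and 82.9 against 100.8, 119.4 and 94.1 CPM, with 0.34 (SE 0.12, unadjusted p = 0.0305 in edgeR). *Cdc37*, which brings kinases to Hsp90, was 59.8, 57.0 and 60.4 against 64.4, 62.3 and 65.5 CPM. Other genes that work with Hsp90, also chosen for naming after their values were seen, had groups that overlapped. Those below 0 included *Chordc1* (−0.01), *Fkbp5* (−0.08) and *Unc45a* (−0.11). Those above 0 included *Ppp5c* (0.007), *Sugt1* (0.04), *Cdc37l1* (0.05), *Ptges3* (0.10), *Ppid* (0.11) and *Stub1* (0.11). Further ones above 0 were *Ttc4* (0.13), *Pih1d1* (0.13), *Fkbp8* (0.15), *Cacybp* (0.16) and *Stip1* (0.17). None of these genes was called by edgeR, and no direction is given for Hsp90 and its partners together.

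No gene of the chaperonin and prefoldin list or of the ER list was called or had an unadjusted p under 0.05 for genotype in edgeR. Over all genes tested, 7624 of 15105 had a log2 fold change above 0. All 14 genes of the cytosolic TRiC chaperonin and prefoldin had a log2 fold change above 0, from 0.02 (*Vbp1*) to 0.27 (*Pfdn1*), with a median of 0.12. *Vbp1* was below 0 with DESeq2's size factors and with library sizes alone. Of 15 chaperones of the endoplasmic reticulum (ER), 14 were above 0, with a median of 0.27, but none had groups without overlap. *Sdf2l1*, the highest of them at 0.52 (SE 0.27), was 19.8, 13.7 and 17.3 CPM in the *Sucnr1* fl/fl libraries and 15.3, 29.7 and 30.3 CPM in those of Hep-*Sucnr1* KO, so its day 1 library was below 2 of the controls. *Dnajb9* was the lowest at −0.08 (SE 0.11). With each library left out in turn, the median of the ER list ran from 0.15 to 0.50 and that of TRiC and prefoldin from 0.04 to 0.12. Of the 14 TRiC and prefoldin genes, 3 (*Pfdn1*, *Pfdn5* and *Cct2*) were higher without overlap, against 6.54% of all genes. Among genes above 10 CPM the median for genotype was 0.17 below 1000 bases of transcript and 0.09 from 1000 to 2000. The part of length in the values of these lists was not tested.

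Of 19 other mitochondrial chaperones and proteases, the list nearest to *Hspd1* and *Hspe1*, 13 were higher and 6 lower, with a median of 0.05. Their values ran from −0.12 (SE 0.11) for *Afg3l2*, a protease of the inner membrane, to 0.29 (SE 0.24) for *Hscb*, an Hsp40 of iron-sulfur cluster assembly. Of the 19, 3 (*Grpel1*, *Clpp* and *Clpb*) were higher in every Hep-*Sucnr1* KO library, against 6.54% of all genes. *Clpp* was 31.5, 31.0 and 32.9 against 36.1, 36.1 and 35.5 CPM, and *Grpel1*, the nucleotide exchange factor of mitochondrial Hsp70, 68.5, 71.1 and 68.8 against 78.3, 82.1 and 73.6 CPM.

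In the remaining lists the medians lay on both sides of 0. Cytosolic Hsp40 co-chaperones had 8 of 13 genes higher and a median of 0.03, from −0.21 (SE 0.10) for *Dnajc13* to 0.27 (SE 0.24) for *Dnajb5*. Other co-chaperones of Hsp70 and Hsp90 had 13 of 17 higher and a median of 0.07, from −0.13 (SE 0.13) for *Bag4* to 0.15 (SE 0.11) for *Fkbp8*. Other genes named as Hsp70 or small heat shock protein genes had 2 of 6 higher and a median of −0.05. Their values ran from −0.49 (SE 0.46) for *Hspa12a* to 0.30 (SE 0.19) for *Hspb11*. All 5 other heat shock factors and regulators tested were above 0 with a median of 0.14, from 0.04 (SE 0.12) for *Hsf2* to 1.31 (SE 0.59) for *Hsf2bp*, which was under 0.4 CPM in every library. Of 12 immediate early genes, which respond to handling and growth signals within minutes, 11 were lower in Hep-*Sucnr1* KO, with a median of −0.16, from −0.36 (SE 0.26) for *Fosb* to 0.13 (SE 0.27) for *Ier3*.

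**Figure D5:**
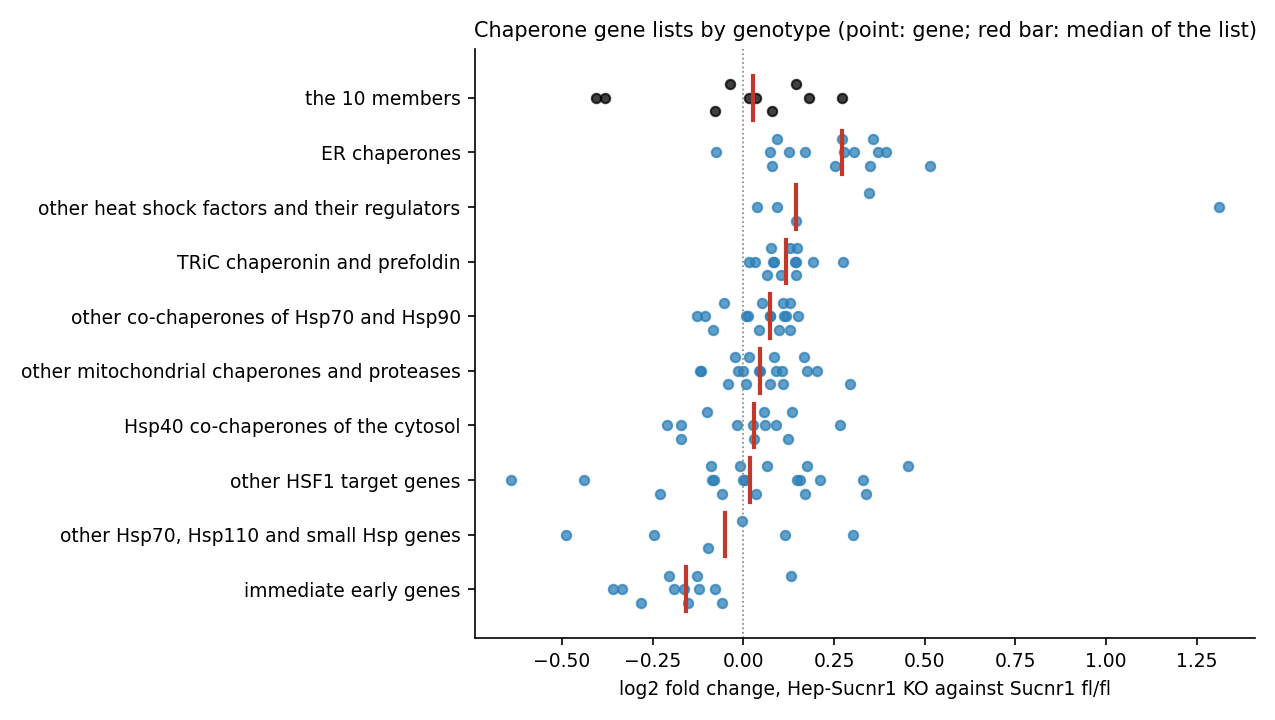
Log2 fold change for genotype of each tested gene (points) in the 9 lists and of the 10 genes described here, with the median of each list as a red bar. Medians run from −0.16 for immediate early genes to 0.27 for ER chaperones, and that of the 10 genes is 0.03, with *Hspa1a* and *Hspa1b* apart from the rest at the low end.

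For extraction day the lists had medians between −0.13 (other heat shock factors and regulators) and 0.08 (ER chaperones). Within the lists the values were highest for *Hsf2bp* (0.87), *Creld2* (0.28), *Cacybp* (0.23), *Pih1d1* (0.20), *Fosb* (0.17), *Dnajc15* (0.16), *Dnajc13* (0.14), *Hspb6* (0.12) and *Cct3* (0.09). They were lowest for *Serpinh1* (−0.73), *Hspa12a* (−0.61), *Nr4a1* (−0.51), *Hsbp1l1* (−0.33), *Grpel2* (−0.31), *Dnajc9* (−0.24), *Hspa5* (−0.17), *Bag2* (−0.16) and *Tcp1* (−0.16). None of these 18 had an unadjusted p under 0.05 in edgeR.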

How the data were processed

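Messenger RNA of 6 hepatocyte cultures was sequenced with a stranded kit. The authors trimmed reads with Trim Galore 0.6.7, aligned them to GRCm38 with STAR 2.7.10a, counted read pairs per gene by strand with featureCounts on the Ensembl annotation, and deposited the raw counts as 1 table. Treatment of read pairs matching several genes is not given in the sources used here. Symbols, lengths and coordinates came from the GENCODE annotation of GRCm38, which named 25096 of the 25184 genes.

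CPM were scaled with TMM (edgeR 4.0.16 under R 4.3.3). A gene was tested if its mean DESeq2-normalized count was above 5, after the filter of the study. Genotype and extraction day were tested in 1 model by the quasi-likelihood test of edgeR, and p-values of 15105 genes were adjusted after Benjamini and Hochberg (threshold 0.05). The study itself used DESeq2 with extraction date as covariate, which was run here as an alternative (DESeq2 1.42.0). Intervals are 95% intervals from the fit (3 residual degrees of freedom before moderation). For single CPM values the exact permutation test was two-sided. Nothing in the labels ties each library to its own animal, so p-values measure the spread between these samples, which may be technical. Spread more than depth set the precision: before TMM scaling 1 CPM was at least 30.5 counts, and the common biological coefficient of variation was 0.206.

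The members and the gene lists were chosen with earlier results of these data known. Named genes are the 10 members, *Sucnr1*, in each list the genes with the highest and lowest log2 fold change for genotype and for extraction day, any listed gene past the threshold, and the 5 genes nearest to the mean profile of the inducible members. Other genes of the lists (those whose groups did not overlap or whose unadjusted p was under 0.05, partners of Hsp90, and *Chordc1* for its promoter) were named after their values were seen. Alternatives were DESeq2, DESeq2's size factors, library size alone, no filter, edgeR's own filter, no other covariate, a robust fit, the index series as a term, day 2 alone, each library left out, and a threshold of 0.1. The index series is a split made here by index name. It sets UDP0039 and UDP0040 (*Sucnr1* fl/fl replicates 1 and 2) against UDP0085 to UDP0088, and no label names it as a batch. The fits were checked on simulated counts. For genotype, leaving out either library of day 1 leaves the comparison to the day 2 libraries, so those fits repeat day 2 alone. Tables were made with Python 3.11.15, pandas 2.3.3 and SciPy 1.17.1.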

Additional observations from a re-analysis of the deposited data

Results flagged for a closer look

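The inducible Hsp70 genes had an unadjusted p under 0.05 for the interaction of genotype with day, which does not pass the correction for the number of genes tested. For *Hspa1a* the log2 fold change for genotype was higher on day 2 than on day 1 by 0.78 (SE 0.24, unadjusted p = 0.0180, adjusted p = 1.00 for the interaction in edgeR). For *Hspa1b* it was higher by 0.65 (SE 0.25, unadjusted p = 0.0390, adjusted p = 1.00 in edgeR). The share of all genes with an unadjusted interaction p under 0.05 was 3.69%, and the 2 genes share most of their sequence. Day 1 has 1 library of each genotype, so the spread behind these values comes from the day 2 libraries and from the moderation over all genes, and the day 1 libraries are assumed to vary alike. These 2 genes were singled out for this gap, so it is given as values and not as a difference between days. No group had the 4 libraries needed to look for single outlying values.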

How the results depend on the processing

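None of the 10 genes was called for genotype under the 16 alternatives or for extraction day under the 15, DESeq2 included, and the lowest adjusted p of any of them was 0.898 for genotype and 0.409 for extraction day. Over all genes, DESeq2 called 7 for genotype, 225 for extraction day and 4 for the interaction, against 0 in edgeR, which called 122 for extraction day with no filter on low counts. With each library left out the calls for extraction day ran from 0 to 29, the latter without *Sucnr1* fl/fl replicate 2. The median log2 fold change of the 10 genes for extraction day ran from −0.13, without that same library, to −0.018. Of the genes nearest to the inducible profile, 0 of 5 stayed when *Hspa1a* and *Hspa1b* were left out of it. Heat shock elements were found in 6 genes with a pair of units and 3 with a run of 3.

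For genotype, signs turned for *Dnajb1* (−0.0057 with DESeq2 or its size factors, −0.021 with library size alone, −0.0049 with no filter, −0.068 on day 2 alone, and between −0.068 and 0.11 with each library left out). *Hsph1* turned to 0.064 and *Hspa8* to 0.025 with the index series as a term, and *Hsph1* to 0.010 relative to its length class. With each library left out *Hsph1* ran from −0.15 to 0.030 and *Hspa8* from −0.11 to 0.032. *Vbp1* was −0.0063 with DESeq2 or its size factors, −0.016 with library size alone, −0.0047 with no filter and −0.026 with the index series as a term, and ran from −0.078 to 0.097 when a library was left out. *Ier3* was −0.070 with the index series as a term and −0.15 to 0.43 with a library left out, and *Hsf2* −0.018 to 0.10.

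For extraction day, *Hspa1a* was 0.0080 with the index series as a term. With each library left out, values for extraction day ran from −0.45 to 0.36 for *Hspa1a*, −0.48 to 0.21 for *Hspa1b*, −0.10 to 0.057 for *Hspd1*, −0.18 to 0.0054 for *Hsph1*, −0.17 to 0.018 for *Dnajb1*, −0.15 to 0.015 for *Hspa8*, −0.0034 to 0.070 for *Hspe1* and −0.19 to 0.084 for *Hsf1*. They ran from −0.088 to 0.26 for *Hspb6*, −0.57 to 0.077 for *Dnajc9*, −0.23 to 0.80 for *Creld2*, −0.47 to 0.018 for *Bag2* and −0.069 to 0.33 for *Fosb*. The other signs of the 10 genes were kept, in 148 of 162 values for genotype and 132 of 142 for extraction day. The summed Hsp70 row and the length classes were chosen after seeing the data. The index series, a split by index name that no label calls a batch, went partly with genotype. The cause of these changes was not tested. No paired analysis was possible because the genotypes share only replicate number 3.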
